A study of Capra hircus with 6 samples.

Results

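The genes described here are 43 genes of extracellular proteolysis: 13 matrix metalloproteinases (MMP), 3 of their tissue inhibitors (TIMP), 18 ADAMTS proteases, 6 membrane-bound ADAM proteases and the 3 genes of plasminogen activation, *PLAU*, *PLAUR* and *PLAT*. Their regions are the rows of the authors' deposited table of differing accessible regions whose centre lies inside such a gene or within 50 kb of an end of it. All 43 genes were found in the gene table, and 177 of the 30714 listed regions met the rule. *ADAMTS8* and *ADAMTS15* lie side by side and share 1 region, so there are 178 pairs of a gene and a region.

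The study profiled goat (*Capra hircus*) mammary epithelial cells by ATAC-seq, which uses a transposase to insert adapters into open chromatin. From the series' title, open chromatin in lactation was of interest for placing transgenes. The comparison set 3 libraries of the dry period (replicates 1, 2 and 3), when no milk is made, against 3 of the lactation period (replicates 1, 2 and 5). The labels name no other treatment, genotype or age, and nothing in them says that each library came from its own animal, so the authors' p-values may reflect technical spread only. Read depth is unknown, because the table gives no value per library.

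For each listed region the authors gave a fold change, a p-value, always under 0.001, and a false discovery rate (FDR). The names of the regions form 2 sets, set 1 with 22884 and set 2 with 7830 regions, and every fold change in both is above 1, so each set was read as the regions more accessible in one of the periods. Which period is which is stated nowhere in the sources used here, and directions are therefore given as set 1 and set 2. A region counts as differing below at an FDR under 0.05, a limit reached at a p of 6.21e-05 in set 1 and 5.63e-06 in set 2 in the authors' deposited table. In what follows, 2-fold at a region means that the authors' fold change toward the region's own set was 2. Positions are the authors', counted from 1. Strand is not in the gene table, so a gene has a lower and a higher end rather than a start, and exons and introns were not separated.

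MMPs are zinc proteases that cut collagens, laminins and other matrix proteins, are made as inactive precursors, and are blocked by TIMPs. ADAMTS proteases are secreted and cut proteoglycans or trim procollagens, while ADAMs sit in the membrane and release growth factors and receptors from the cell surface. Urokinase (*PLAU*), bound to its receptor (*PLAUR*), and tissue plasminogen activator (*PLAT*) turn plasminogen into plasmin, which cuts matrix and also caseins in milk. In the mammary gland these systems are known for duct branching and for the breakdown of the basement membrane when the gland regresses after milk removal stops.

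As a group the protease genes had shares of differing regions near those of the whole table. Of their 177 regions, 55 passed an FDR of 0.05 (31.1%, with a 95% Wilson interval from 24.7% to 38.2% for counting error alone), against 27.8% of all listed regions. Within set 1 it was 52 of 144 (36.1%), against 34.2% of all listed set 1 regions. Within set 2 it was 3 of 33 (9.09%), against 9.23%. By gene, 22 of 43 had at least 1 differing region (51.2%), against 51.4% of 19063 protein-coding genes under the same rule, although the protease genes are longer, with a median length of 42.8 kb against 17.8 kb. A differing set 2 region was listed at *MMP13*, *ADAMTS19* and *ADAM17*, 3 of 43 (6.98%), against 5.06% of protein-coding genes. Set 1 held 94.5% of the 55 differing regions (85.1% to 98.1%) and 91.5% of the 8543 in the whole table.

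The families differed in their counts, without a test between them. The 3 plasminogen activation genes had 13 differing regions of 32 listed, all 13 in set 1. ADAM genes had 12 of 33 (11 in set 1 and 1 in set 2), MMP genes 17 of 51 (16 and 1) and ADAMTS genes 12 of 50 (11 and 1). TIMP genes had 1 of 11, in set 1. The share that passed ran from 9.09% for TIMP genes to 40.6% for plasminogen activation genes, against 27.8% of all listed regions. *PLAU* alone gave 17 of the 32 plasminogen activation regions. The families also differ in median gene length, for example 154.2 kb for ADAMTS and 13.2 kb for plasminogen activation genes. At 6 genes nothing was listed: *MMP2* (gelatinase A), *MMP7* (matrilysin) and the proteoglycan-cutting *ADAMTS1*, *ADAMTS5*, *ADAMTS9* and *ADAMTS20*. Thus 37 of the 43 genes had a listed region (86.0%), against 79.7% of protein-coding genes. From the absence of a listed region it cannot be told whether chromatin at those 6 genes was open or closed.

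**Figure D1:**
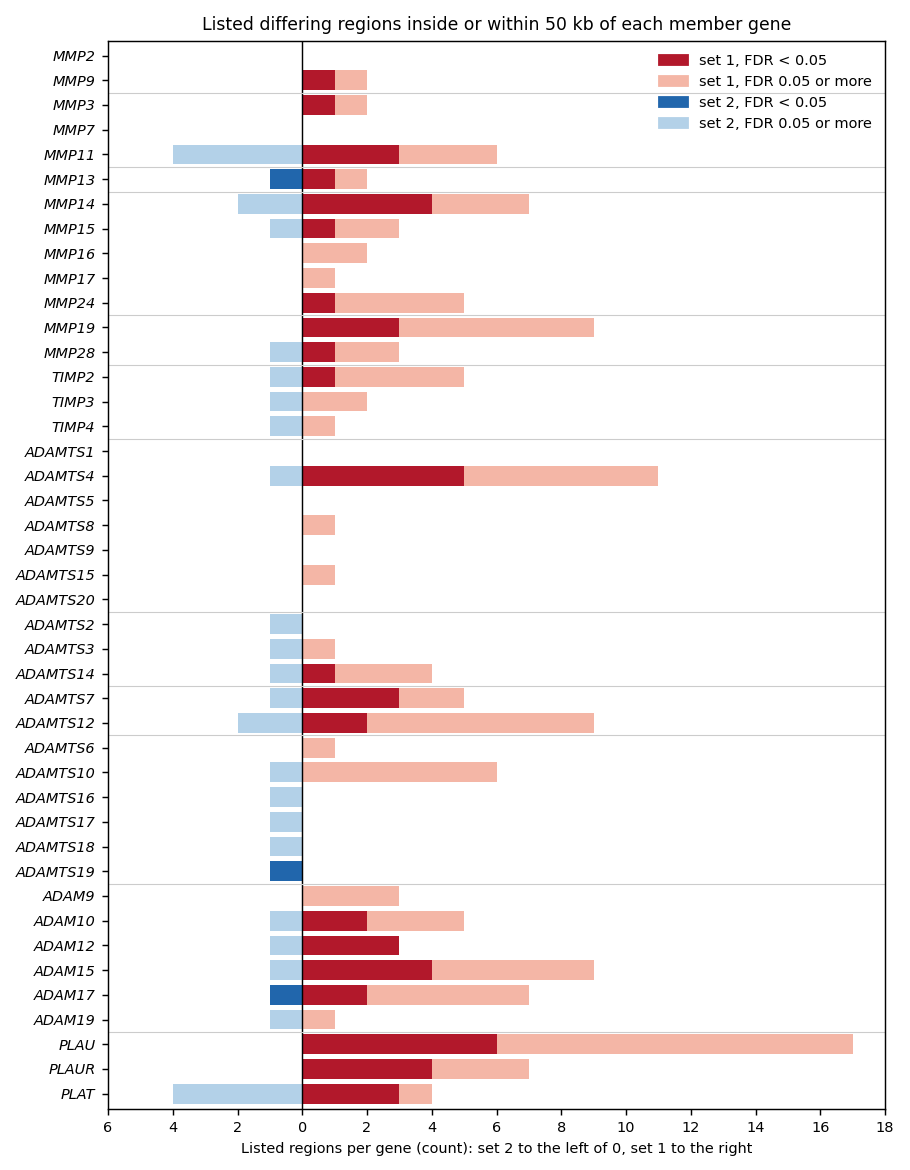
Number of listed regions at each of the 43 genes, set 1 to the right of 0 and set 2 to the left, with dark bars for regions at an FDR under 0.05; grey lines separate the roles. *PLAU* has 17 set 1 regions, *MMP11* and *PLAT* have 4 set 2 regions each, and 6 genes have none.

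*PLAU* had the most listed and the most differing regions of the 43 genes. It had 17 listed regions, all in set 1, and 6 of them passed. Of all protein-coding genes, 1.88% had 17 or more listed regions and 3.27% had 6 or more that passed. Within 3 kb of its short gene body (6.0 kb) lay 9 of the 17, of which 4 passed; 0.913% of protein-coding genes had 9 or more there, a limit chosen after these values were seen. The region with the smallest p lay inside *PLAU*, 187 bp from its higher end, on chromosome 28 at 15839901 to 15840600 (700 bp), at 1.66-fold (p = 9.68e-08, FDR = 0.000544 in the authors' deposited table). Next to it, 2.0 kb beyond that end, was a second region of 700 bp at 15842101 to 15842800, at 1.70-fold (FDR = 0.0104 in the authors' deposited table). On the other side of the gene, 2 regions lay 0.7 and 1.4 kb beyond the lower end, with fold changes of 2.53 and 3.00 in the authors' deposited table (FDR = 0.0349 and 0.0455). Thus both ends of *PLAU* carried differing regions of the same set. The last 2 that passed lay 34.1 and 37.6 kb away at *CAMK2G*, a calmodulin-dependent kinase gene, with fold changes of 1.42 and 1.63 in the authors' deposited table. The former was also the region closest to the threshold among all 55 (FDR = 0.0493).

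At *PLAT*, 2 of 3 differing regions lay deep inside the gene, and both sets were listed. The leading region was on chromosome 27 at 8551601 to 8552400 (800 bp), 8.1 kb from an end, in set 1, at 2.58-fold (p = 6.87e-09, FDR = 7.49e-05 in the authors' deposited table). A second set 1 region lay 10.2 kb from the same end, at 1.44-fold (FDR = 0.00527 in the authors' deposited table). The remaining differing region lay 35.3 kb outside, nearer to *AP3M2*, a gene for an adaptor of vesicle transport. All 4 set 2 regions at *PLAT* missed the threshold, with fold changes from 1.64 to 7.40 and an FDR from 0.716 to 0.855 in the authors' deposited table.

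For *PLAUR*, the urokinase receptor, 4 of 7 listed regions passed, all in set 1, but none of the 4 lay near the gene. That with the smallest p was on chromosome 18 at 52914001 to 52914400 (400 bp), 27.0 kb from *PLAUR* and inside the zinc finger gene *ZNF428*, at 1.75-fold (p = 3.63e-07, FDR = 0.00146 in the authors' deposited table). A group of 3 followed 37.5 to 40.7 kb on the other side, nearest to *IRGC*, with fold changes of 2.30, 4.28 and 2.48 in the authors' deposited table. The 1 region inside *PLAUR* itself had a fold of 1.49 at an FDR of 0.213 in the authors' deposited table.

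**Figure D2:**
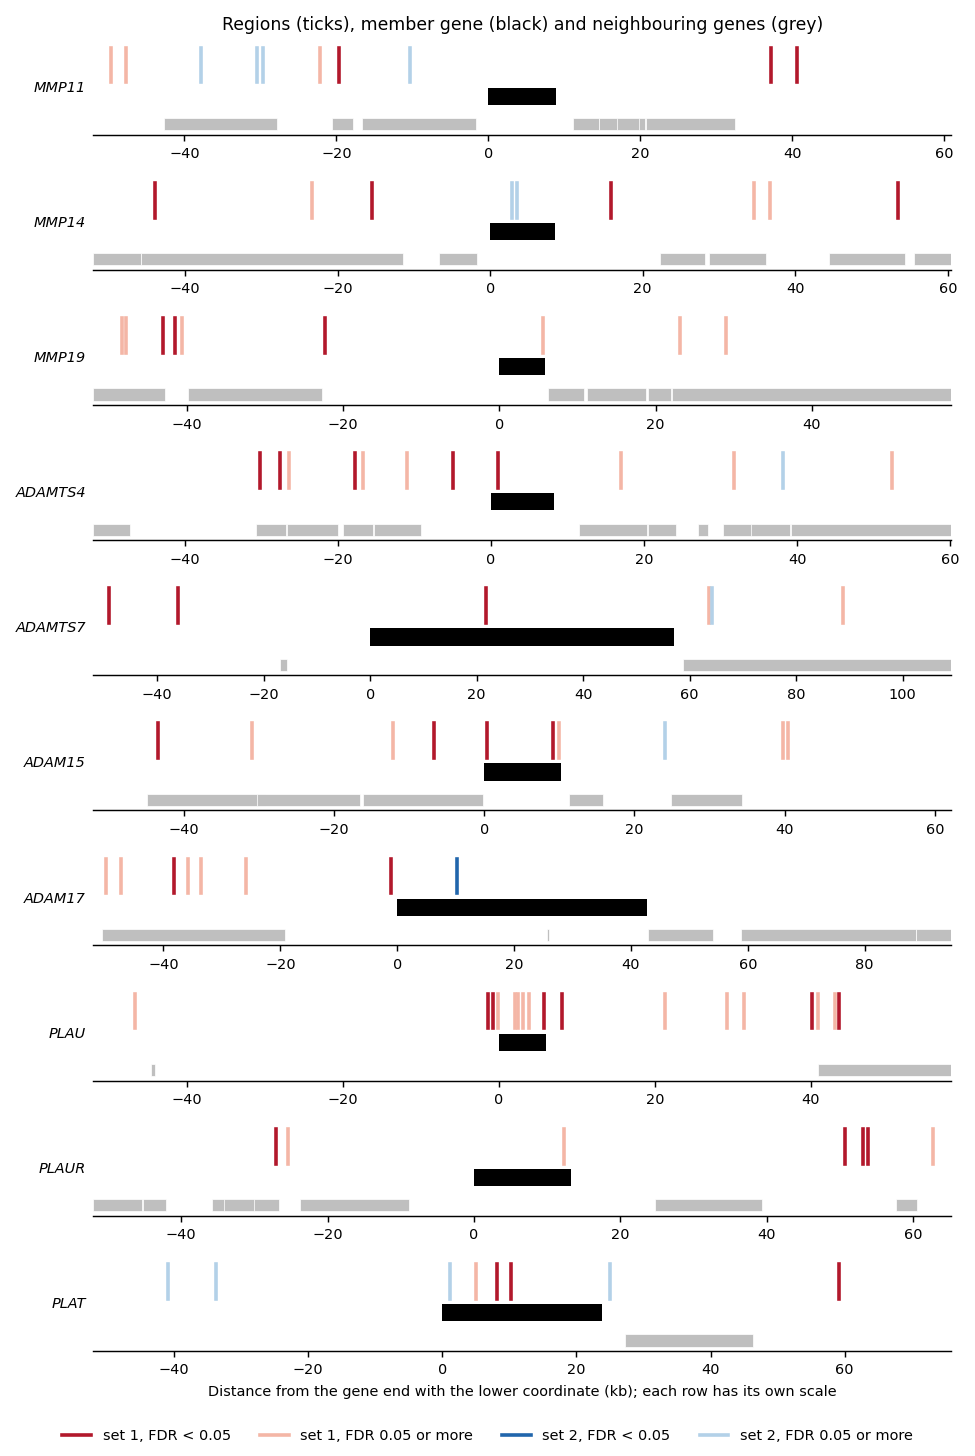
Positions of listed regions (ticks) around the 10 genes of at most 100 kb with 3 or more differing regions, in kb from the lower end of the gene; the gene is black, other protein-coding genes are grey, and each row has its own scale. Ticks crowd on *PLAU* itself, whereas the dark ticks of *PLAUR*, *MMP11* and *MMP19* lie away from the gene.

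Among the secreted MMPs, the differing regions of *MMP3*, *MMP9*, *MMP11* and *MMP19* were all in set 1 and all outside the genes. *MMP3* encodes stromelysin, which cuts basement membrane proteins and activates other MMPs. Its differing region on chromosome 15 at 76643101 to 76643500 (400 bp) lay 13.2 kb away, at 2.11-fold (p = 1.16e-07, FDR = 0.000626 in the authors' deposited table). This region was also within 50 kb of *MMP1* and *MMP12*, and *MMP3* was the nearest of them. At *MMP9*, gelatinase B, known from neutrophils and macrophages, the region lay 40.1 kb away inside the chloride transporter gene *SLC12A5*, on chromosome 13 at 74303401 to 74303700 (300 bp), at 1.76-fold (p = 3.22e-05, FDR = 0.0324 in the authors' deposited table).

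*MMP11* encodes stromelysin 3, which is secreted in active form. Its 3 differing regions of 10 listed lay 19.7 to 31.7 kb away, at *DERL3* and *ZNF70*. The leading region, on chromosome 17 at 162001 to 162400 (400 bp), differed 1.65-fold (p = 1.10e-06, FDR = 0.00320 in the authors' deposited table). *MMP11* had 4 set 2 regions, none of which passed, with folds of up to 6.47 in the authors' deposited table. All 9 regions at *MMP19* were in set 1, and 3 passed. They lay 22.3 to 43.1 kb away at *PYM1* and *DGKA*. That with the smallest p, on chromosome 5 at 56770901 to 56771100 (200 bp), was 387 bp from an end of *PYM1* and had the largest fold change of the 55, 6.56 in the authors' deposited table (p = 2.91e-05, FDR = 0.0304).

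*MMP13*, the collagenase of this group, had 1 differing region of each set, on opposite sides of the gene, with large fold changes. The set 2 region, on chromosome 15 at 76716101 to 76716600 (500 bp), lay 47.5 kb from *MMP13* and 32.8 kb from *MMP12*, at 5.26-fold (p = 1.18e-07, FDR = 0.00340 in the authors' deposited table). On the other side, 36.0 kb beyond the gene at 76811501 to 76812100 (600 bp), a set 1 region differed 4.70-fold (p = 2.01e-07, FDR = 0.000935 in the authors' deposited table). Another, in set 1 and only 1.8 kb from *MMP13*, had a fold of 5.14 but missed the threshold (FDR = 0.0633 in the authors' deposited table). *MMP13* and *MMP3* belong to a cluster of 8 MMP genes on chromosome 15, in the order *MMP7*, *MMP20*, *MMP27*, *MMP8*, *MMP1*, *MMP3*, *MMP12*, *MMP13*. With 50 kb either side the cluster spans 562.4 kb and held 7 listed regions, 4 in set 1 and 3 in set 2. Of the 7, 4 passed, against 27.8% of all listed regions, a difference not tested on so few. The set 2 region of *MMP20*, the enamel protease, lay inside the gene and differed 6.89-fold (FDR = 0.0129 in the authors' deposited table). Both differing set 1 regions of the cluster lay on the side of *MMP3* and *MMP13*, with the differing set 2 region at 76716101 between them. The sets were thus not separated along the cluster. No region was listed near *MMP7*.

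Of the 5 membrane-type MMP genes, 3 had differing regions, all in set 1. *MMP14* encodes the protease that activates the precursor of MMP2 at the cell surface, and 4 of its 9 listed regions passed. That with the smallest p was on chromosome 10 at 79461801 to 79462300 (500 bp), 7.4 kb from *MMP14* and slightly nearer to *LRP10*, at 1.45-fold (p = 3.17e-06, FDR = 0.00668 in the authors' deposited table). The other 3 lay 15.5 to 45.0 kb away at *SLC7A7* and *RBM23*, with fold changes of 1.69 to 3.71 in the authors' deposited table. Inside *MMP14* itself only set 2 regions were listed, 2 in number, with fold changes of 2.25 and 4.97 and an FDR of 0.802 and 0.593 in the authors' deposited table, so neither passed. *MMP15* had its differing region inside the gene, 2.5 kb from an end, on chromosome 18 at 27286101 to 27286400 (300 bp), at 2.26-fold (p = 9.44e-06, FDR = 0.0143 in the authors' deposited table). At *MMP24* it lay 14.3 kb outside, with *MMP24* as the nearest gene, on chromosome 13 at 64048301 to 64048700 (400 bp), at 1.72-fold (p = 6.26e-07, FDR = 0.00214 in the authors' deposited table). *MMP16* and *MMP17* had 2 and 1 listed regions, all in set 1 and none under the threshold, with a lowest FDR of 0.0729 (fold change of 2.47) and 0.0600 (2.82) in the authors' deposited table.

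*MMP28*, epilysin, a protease of epithelia and wound repair, held the second smallest p of all 177 regions. Its set 1 region lay inside the gene, 2.3 kb from an end, on chromosome 19 at 14256701 to 14257600 (900 bp), at 2.11-fold (p = 2.66e-11, FDR = 9.21e-07 in the authors' deposited table). The same bases also lie inside *C19H17orf50*, which overlaps *MMP28*.

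Of the 11 regions listed at the inhibitors, 1 passed. *TIMP2*, which takes part in the activation of MMP2 by MMP14, had 1 differing region of 6 listed, in set 1, 7.4 kb from the gene on chromosome 19 at 52660701 to 52661200 (500 bp), at 2.25-fold (p = 7.19e-06, FDR = 0.0118 in the authors' deposited table). A second set 1 region 8.6 kb from the gene had a fold of 3.72 at an FDR of 0.0588 in the authors' deposited table. *TIMP3*, the inhibitor that also blocks ADAM17 and the aggrecan-cutting ADAMTS proteases, had 2 set 1 regions 0.5 and 0.8 kb beyond its lower end and 1 set 2 region inside. None of them passed; the lowest FDR was 0.0842, of a region at 1.67-fold, in the authors' deposited table. For *TIMP4* the lowest FDR of 2 regions was 0.165, of a region at 2.31-fold, in the authors' deposited table. Both genes lie inside a synapsin gene, *TIMP3* in *SYN3* and *TIMP4* in *SYN2*.

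*ADAMTS4*, which cuts aggrecan and versican, had the smallest p of any region at these genes and the seventh smallest in the whole table. This set 1 region covers 1200 bp inside the gene, 949 bp from its lower end, on chromosome 3 at 111811501 to 111812700, at 2.47-fold (p = 1.36e-26, FDR = 2.23e-20 in the authors' deposited table). Its fold change was ordinary: 47.2% of all set 1 regions had one as large. Its width was not, since 0.342% of listed regions were as wide. Of the 12 regions listed at *ADAMTS4*, 11 were in set 1. The other 4 that passed lay 5.0 to 30.2 kb below the gene, at *B4GALT3*, *PPOX* and *UFC1*, with fold changes of 1.86 to 4.04 in the authors' deposited table. The window of *ADAMTS4* takes in 11 other protein-coding genes, more than that of any other of the 43. Its relatives showed little: *ADAMTS8* and *ADAMTS15* share a set 1 region 571 bp from the lower end of *ADAMTS15*, with a fold of 1.57 at an FDR of 0.155 in the authors' deposited table.

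**Figure D3:**
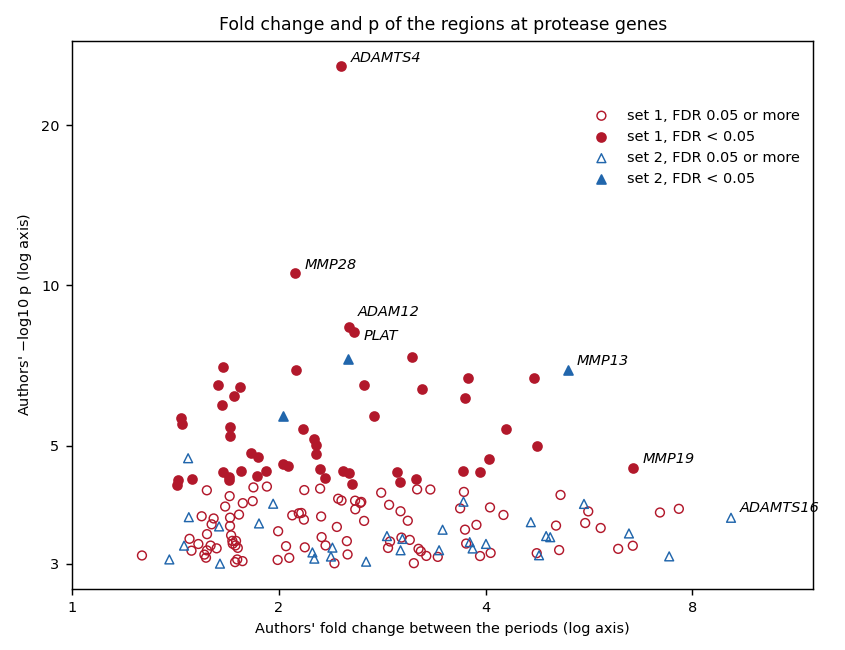
Authors' fold change (log axis) against the authors' −log10 p (log axis) for the 177 regions, circles for set 1 and triangles for set 2, filled at an FDR under 0.05. The *ADAMTS4* region lies far above the rest at a moderate fold change of 2.47, and the *ADAMTS16* region with the largest fold change, 9.11, lies among those that missed the threshold.

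Of the procollagen N-proteinases, which trim fibrillar collagens before they assemble, *ADAMTS14* had a differing region. It lay inside the gene, 43.7 kb from an end, in set 1, on chromosome 28 at 18786201 to 18786500 (300 bp), at 1.49-fold (p = 4.59e-05, FDR = 0.0410 in the authors' deposited table). *ADAMTS3* had 1 region of each set inside it, and its set 1 region came close to the threshold with a fold of 3.32 at an FDR of 0.0552 in the authors' deposited table. *ADAMTS2* had a single set 2 region inside it with a fold of 2.87 at an FDR of 0.583 in the authors' deposited table.

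*ADAMTS7* and *ADAMTS12*, both of which cut cartilage oligomeric matrix protein, had 3 and 2 differing regions, all in set 1. That of *ADAMTS7* with the smallest p lay inside the gene, 21.8 kb from an end, on chromosome 21 at 29936401 to 29936800 (400 bp), at 3.12-fold (p = 4.69e-08, FDR = 0.000318 in the authors' deposited table). The other 2 lay 36.2 and 49.1 kb away, with fold changes of 1.82 and 3.77 in the authors' deposited table. *ADAMTS12* is a gene of 389.3 kb with 11 listed regions, 9 in set 1. Its region with the smallest p, on chromosome 20 at 40246201 to 40246600 (400 bp), lay 23.5 kb outside, nearer to *TARS*, a tRNA synthetase gene, at 2.66-fold (p = 3.07e-07, FDR = 0.00128 in the authors' deposited table). Far inside *ADAMTS12*, 146.3 kb from an end, a second region differed 3.23-fold (FDR = 0.00160 in the authors' deposited table).

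The remaining ADAMTS genes had 12 listed regions, 5 of them in set 2, and 1 that passed. It was the single region of *ADAMTS19*, in set 2, 29.9 kb outside the gene and nearer to *KIAA1024L*, on chromosome 7 at 86201701 to 86202000 (300 bp), at 2.03-fold (p = 2.01e-06, FDR = 0.0252 in the authors' deposited table). *ADAMTS16*, *ADAMTS17* and *ADAMTS18* likewise had a single region each, in set 2, with fold changes of 9.11, 4.90 and 3.42 and an FDR of 0.425, 0.583 and 0.716 in the authors' deposited table. Together with *ADAMTS2*, 5 of the 37 protease genes with a listed region had set 2 regions alone (13.5%), against 10.4% of protein-coding genes with one. All 5 are ADAMTS genes of 145.9 to 390.8 kb with at most 1 other protein-coding gene in the window. Genes of similar length without such a neighbour differed: *MMP16* (382.6 kb) had set 1 regions alone and *ADAMTS3* (292.2 kb) 1 of each set. Set 1 regions alone were listed at 12 of the 37 genes (32.4%), against 52.9% of protein-coding genes with a listed region. *ADAMTS10*, a gene of microfibril assembly, had 6 set 1 regions and 1 set 2 region, of which none passed. Its lowest FDR was 0.106, of a region at 1.54-fold, in the authors' deposited table. *ADAMTS6* had 1 set 1 region with a fold of 2.64 at an FDR of 0.0752 in the authors' deposited table.

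*ADAM17*, the sheddase of tumour necrosis factor and of amphiregulin, a growth factor of duct growth, had differing regions of both sets at the gene. Its set 2 region lay inside, 10.2 kb from the lower end, on chromosome 11 at 87536401 to 87537100 (700 bp), at 2.52-fold (p = 5.37e-08, FDR = 0.00191 in the authors' deposited table). Its nearer set 1 region lay 1.1 kb beyond the same end at 87525101 to 87525800 (700 bp), at 2.17-fold (p = 4.24e-06, FDR = 0.00818 in the authors' deposited table). The 2 regions have the same width and a similar fold change but opposite sets. Set 1 also held 1 differing region and 5 others in and around *YWHAQ*, the neighbour on that side, with fold changes from 2.66 to 7.65 in the authors' deposited table.

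*ADAM10*, which releases the outer parts of Notch and E-cadherin, had a set 1 region inside it, 19.9 kb from an end, on chromosome 10 at 51505501 to 51505900 (400 bp), at 3.73-fold (p = 7.20e-07, FDR = 0.00237 in the authors' deposited table). A second lay 6.3 kb outside, at 3.17-fold (FDR = 0.0411 in the authors' deposited table). *ADAM12* had 3 differing set 1 regions, of which 1 lay inside it. The leading one, on chromosome 26 at 6552001 to 6552700 (700 bp), was 16.5 kb outside and inside *FANK1*, at 2.53-fold (p = 4.31e-09, FDR = 5.15e-05 in the authors' deposited table). *ADAM15* had 4 differing set 1 regions, 2 of them inside the gene, 0.3 and 1.0 kb from opposite ends. The former had the smallest p of the 4, on chromosome 3 at 104587501 to 104587700 (200 bp), at 2.02-fold (p = 2.42e-05, FDR = 0.0269 in the authors' deposited table). At its other end the fold change was 1.69 in the authors' deposited table (FDR = 0.0386). *ADAM9* and *ADAM19* had 3 and 2 listed regions and none that passed, with a lowest FDR of 0.0978 (fold change of 2.16) and 0.206 (6.24) in the authors' deposited table.

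Many of the regions belong as much to other genes as to the protease genes. Of the 55 differing regions, 14 lay inside a protease gene (25.5%), and for 22 a protease gene was the nearest protein-coding gene (40.0%). The remaining 33 lay inside or nearer to another gene. Of all 177 listed regions, 45 lay inside a protease gene (25.4%) and 73 were nearest to one (41.2%). The share nearest to their gene was not computed over all protein-coding genes. By place, 58.2% of the 55 lay 10 to 50 kb outside the gene, against 60.7% of all pairs of a differing region and a protein-coding gene. Inside a gene and within 3 kb of its end it was 6 of 55 (10.9%) against 7.08%. Inside and farther than 3 kb from an end it was 8 of 55 (14.5%) against 11.9%. The number of set 1 regions per gene went with the number of other protein-coding genes in its window (Spearman rho of 0.80 over the 43 genes), and that of set 2 regions much less so (0.21). These are descriptions over genes whose windows differ in length. Set 2 had only 33 regions over the 43 genes, so many genes tied at low counts, and the contrast between the sets was not tested. Neither correlation was computed over all protein-coding genes. The 12 genes with 4 or more neighbours had 72 set 1 and 11 set 2 regions, while the 11 genes with no neighbour had 5 of each. *PLAU*, with 2 neighbours, had more set 1 regions than *ADAMTS4* with 11.

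**Figure D4:**
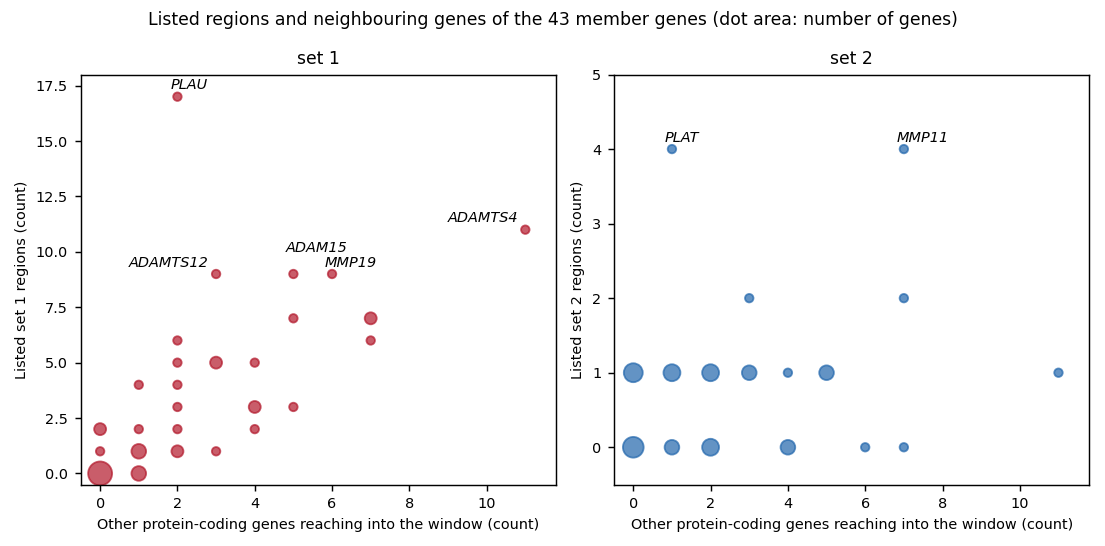
Listed set 1 regions (left) and set 2 regions (right) of each of the 43 genes against the number of other protein-coding genes that reach into its window; a larger dot stands for more genes. Set 1 counts are higher where more genes lie nearby, with *PLAU* at 17 regions and 2 neighbours above the rest.

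In set 1, fold changes and widths were near those of the table, while fold changes in set 2 were lower. The median fold change of the 52 differing set 1 regions was 2.26 (range 1.42 to 6.56), against 2.32 for all differing set 1 regions in the authors' deposited table. The 3 differing set 2 regions had 2.03, 2.52 and 5.26, against a median of 3.53 for all in that set in the authors' deposited table. For the 33 listed set 2 regions the median was 3.01, against 3.59 for all listed set 2 regions in the authors' deposited table. The median width was 400 bp in set 1, as in the whole table. The *ADAM17* region just within the 50 kb limit lay 49893 bp from the gene (FDR = 0.117), and the first beyond it 50193 bp (FDR = 0.158), in the authors' deposited table.

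Other genes of these pathways, 42 of 47 names on a list of further proteases, inhibitors and partners that matched the gene table, had a differing region in 29 cases (69.0%), against 51.4% of protein-coding genes. Of the 42, 25 had one in set 1 (59.5%), against 48.9%, and 7 in set 2 (16.7%), against 5.06%. These genes are not all separate from the 43 or from each other. *MMP1* and *MMP12* were counted through regions also listed at *MMP3* and *MMP13*, and *ADAMTS13* and *ADAMTSL2* share a differing region. In all, 3 of the 221 regions of this list were also regions of the 43 genes. The smallest FDR was at *BSG*, the inducer of MMP production, 36.0 kb from the gene, in set 1, at 2.58-fold (FDR = 4.25e-11 in the authors' deposited table). Set 2 led at *LRP1*, the receptor that clears protease and inhibitor complexes (8.1 kb from the gene, fold change of 3.59, FDR = 4.21e-06), and inside *PCSK6*, a proprotein convertase (3.53, FDR = 4.39e-06), in the authors' deposited table. All 4 regions listed at *PCSK6* were in set 2, and 2 passed. At *LRP1*, by contrast, 8 of 10 listed regions were in set 1, as were 3 of the 4 that passed. Next in order of FDR in set 1 came *THSD4* and *ADAMTSL4*, both ADAMTS-like matrix proteins, and the membrane-anchored protease *MMP25*, with fold changes of 3.15, 2.02 and 2.58 in the authors' deposited table. Of 221 regions at these genes 29.4% passed, near the 27.8% of the table. Of 21 genes for matrix substrates, 14 had a differing region (66.7%, against 51.4% of protein-coding genes). All 14 had one in set 1, and 1 (*LAMB3*) also had one in set 2. Of the 95 regions at the 21 genes, 35.8% passed. These genes are not all separate either: *COL4A1* and *COL4A2* share their differing region of smallest p. *COL1A1* also stands in the fibroblast list below, with the same regions.

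Several proteases named here are known mainly from stroma or immune cells, and in a sample of many cells a change in the share of a cell type and a change in accessibility per cell cannot be told apart. Differing regions were listed at 10 of 10 luminal markers (all in set 1), 6 of 10 basal markers (all in set 1), 2 of 10 fibroblast markers (both in set 1) and 6 of 8 matched myeloid markers (5 with a set 1 and 3 with a set 2 region). Of protein-coding genes, 51.4% had a differing region, 48.9% one in set 1 and 5.06% one in set 2. Luminal markers (10 of 10) and myeloid markers (6 of 8) lay above the 51.4%. Basal markers (6 of 10, 60.0%) were near it and fibroblast markers (2 of 10) below it. For set 2, 3 of 8 myeloid markers (37.5%) lay above the 5.06%, while luminal, basal and fibroblast markers had no such region. None of these differences was tested, on so few genes. The luminal markers *KRT8* and *KRT18* lie close together and share differing regions, so the 10 luminal genes are not all separate. The single differing region of the basal marker *CDH3* lies inside the luminal marker *CDH1* and was counted for both, and 1 region was likewise counted for *PDGFRB* and the myeloid marker *CSF1R*. Those of the fibroblast list were *COL1A1* and *PDGFRB*, and none was listed at *DCN*, *LUM*, *DPT* or, in the myeloid list, *PTPRC*. The part of cell makeup in the regions of the protease genes was not tested. A list of differing regions gives no level of accessibility, so the labelled cell type could not be checked against its markers.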

How the data were processed

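The data are 1 table of 30714 regions from the authors' comparison of 3 dry period with 3 lactation ATAC-seq libraries. The fold change the authors deposited is a ratio of the groups on a linear scale, and the p-value and Benjamini-Hochberg FDR (a q-value) are the authors'. The deposited signal value is a score proportional to the fold change within each set and was not used; the width, a further measure in bp per the file headers, was. Bowtie2 2.2.5 and MACS2 are named in the submitters' processing notes without a role. Not given in the sources used here: build, caller of differing regions, Tn5 shift and removal of duplicates. No per-library value was used, so depth is unknown and no test across libraries was run; counts rest on the authors' FDR at 0.05.

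Genes came from a RefSeq table of assembly ARS1.2, used for names and distances. RefSeq chromosome accessions in the table were read as chromosomes 1 to 29. As a check of the build, the share of regions within 1000 bp of a gene end was higher at the listed position than 100000 bp away on 29 of 29 chromosomes. A region was placed by its centre, inside or within 50000 bp of a gene, a step tested on simulated positions. Shares have 95% Wilson intervals. Alternatives changed the FDR, p, fold and distance limits, the placing of regions and the sharing of regions with other genes. No sequence was used here, so the planned promoters and motifs were not analysed here. Named in full were the region of smallest p of each gene with a differing region and of the 3 genes with the most regions, and the 6 other pathway genes with the smallest FDR. The genes and lists were chosen with earlier results of these data known. Python 3.11.15, pandas 2.3.3, numpy 2.4.6, scipy 1.17.1 and matplotlib 3.10.9 were used.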

Additional observations from a re-analysis of the deposited data

How the results depend on the processing

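The 55 differing regions became 24 at an FDR under 0.01 (13.6% of 177, against 13.1% of all listed regions), 28 at a p under 1e-05 whatever the set (15.8%, against 17.0%), and 35 with a fold change of at least 2 (19.8%, against 19.2%). They became 23 within 10000 bp of the gene, 18 within 3000 bp, and 22 when the protease gene had to be the nearest protein-coding gene. Of the 22 genes with a differing region, 14 were left within 10000 bp and 12 within 3000 bp. The latter were 12 of 43 protease genes, and 22.4% of protein-coding genes had a differing region within 3000 bp. The share within 10000 bp was not computed over all protein-coding genes. Under the other 7 alternatives the gene count stayed within 1.5 times, at 15 to 23, and under 3 so did the region count, at 49 to 74; these include leaving out the *PLAU* window (49 regions, 21 genes), an alternative chosen after seeing the data. The set 1 share lay between 89.3% and 93.9% under its 4 alternatives. No paired analysis was possible because the table holds no value per library; leaving out single replicates was not run for the same reason. Depth per region is unknown, so whether a gene without a listed region lacked reads could not be judged.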
